A study of Arabidopsis thaliana with 9 samples.

Results

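The UDP-glycosyltransferase (UGT) and glutathione transferase (GST) genes of Arabidopsis thaliana were followed across 3 genotypes. Members were the probe sets that the platform annotation assigned to a single gene whose symbol began with UGT and a digit, or with GST or ATGST. UGT74B1 was left out by this rule. It gave 60 members of the 22746 probe sets analysed, 46 UGT genes in 11 subfamilies and 14 GST genes in 3 classes. Each member stood for a different gene, and all 60 symbols were unchanged in RefSeq's annotation of the TAIR10.1 assembly. A further 3 probe sets, for UGT73B2 with UGT73B3, UGT71D1 with a neighbour and UGT89B1 with a neighbour, matched several genes and were not members.

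Affymetrix ATH1 arrays had been hybridised with RNA from above-ground tissue of 10-day-old plants. There were 3 arrays of a HAP5 triple mutant, 3 of a constans mutant and 3 of wild type. The HAP5 line was a T-DNA knock-out in Col-0. The constans mutant was a line labelled co-SAIL, with no background given. Wild type was Col-1, so genotype and background cannot be told apart. HAP5 genes encode the NF-YC subunits of the CCAAT-binding NF-Y complex, and CONSTANS is a transcription factor of photoperiodic flowering. All plants had 16 h of light and 8 h of dark at 22 °C and were taken 14 h after lights on. All had been grown on soil treated with the pesticide Marathon and watered from below with fertilizer after a cold period. The labels do not say which HAP5 genes were mutated, and the transcripts of the mutated genes were not analysed here. Nor do they state if a genotype's arrays came from separate plants, so p-values measure the spread between these arrays, which may be technical.

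UGTs move a sugar from a UDP-sugar onto small molecules, among them hormones, flavonoids, phenylpropanoids, sterols and foreign compounds, and so change their activity, solubility or storage. GSTs join the tripeptide glutathione to reactive or foreign compounds or carry such ligands, and the plant-specific tau (GSTU), phi (GSTF) and lambda (GSTL) classes are known for responses to herbicides and oxidative stress. Both families are large in plants, and many members lie next to close relatives on a chromosome.

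Values are MAS5 signals, the summary of probe brightness that the deposited table gives for each probe set. The authors' scaling had given every array 1 common trimmed mean, with median signals between 33.1 and 37. Array-to-array correlations across probe sets were between 0.952 and 0.985. The 25S ribosomal RNA control varied more, with 15.9 to 42.4 on the triple mutant arrays, 56.5 to 1152 on the constans arrays and 22.6 to 418 on the wild-type arrays. The 3 arrays over 400 were constans 2, constans 3 and wild type 3. Precision is limited by there being 3 arrays to a genotype. Of the leaf markers, RCA, LHCB4.1, LHCB4.2 and LHCB4.3 had a named probe set, with summed signals of 10949 to 13701 in the triple mutant, 11878 to 14560 in the constans mutant and 11711 to 13680 in wild type. The root hair genes EXPA7 and EXPA18 were both too dim to test. Their summed signals were 5.3 to 15.7, 7.1 to 17.4 and 8.7 to 13.5 in the triple mutant, the constans mutant and wild type. CLV3, a shoot meristem gene, was 0.4 to 0.8, 1.1 to 22.1 and 0.5 to 1.1 in the same order, and no flower or seed marker had a named probe set. In whole shoots, fewer cells of a type and less RNA per cell cannot be told apart.

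A probe set was tested when its geometric mean signal reached 18.65 in 1 genotype or more, a cutoff set at the 40th percentile of all genotype means. This left 14173 probe sets. Of the members 27 were tested, 20 UGT and 7 GST genes, which is 45% of the members, against 62.3% of all probe sets and 56.9% of those with a single named gene. At the cutoff in all 3 genotypes were 23 tested members. UGT72B3 reached it in 2 genotypes, and UGT84A4, UGT85A7 and GSTF4 in 1 each. Those 4 passed only through the genotypes in which they were high, so counts over the tested members are descriptions. Signals of different probe sets depend on their probes, and no member's level is set against another's.

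All 7 members of the UGT73 subfamily were too dim to test, among them UGT73B5, known from pathogen and redox responses, as were 6 of 9 in UGT71 and 5 of 8 in UGT76. In the tau class 6 of 11 GSTs were too dim. Among the 33 untested members, 30 stayed below a signal of 20 on every array, and 24 were at or below the floor of 1.029 on at least 1 array. The 3 that exceeded 20 on some array were UGT72E2, UGT76E12 (38.7 on constans 3) and UGT85A3. UGT73B5 gave 0.431, 2.02 and 2.08 on the triple mutant arrays, 2.75, 2.62 and 5.81 on the constans arrays, and 1.48, 1.397 and 0.842 on the wild-type arrays. No tested member was at the floor on any array.

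**Figure D1:**
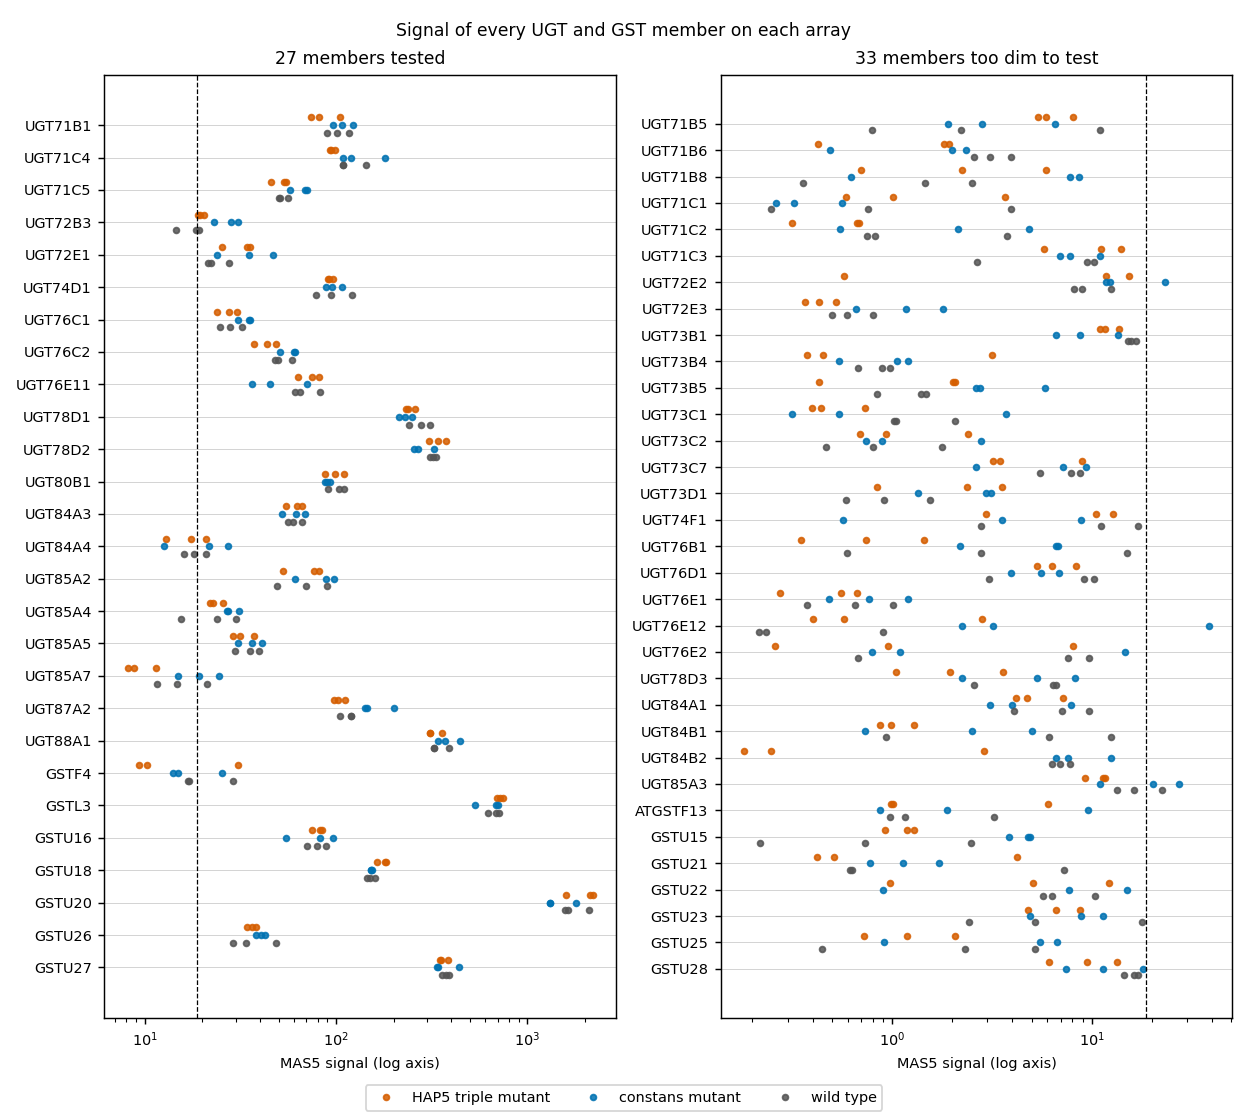
MAS5 signal (log axis) of the 60 members on each of the 9 arrays, with a point for each array, the HAP5 triple mutant above the constans mutant and wild type in each row, and tested members at left. The dashed line is the cutoff of 18.65; the untested members lie mostly left of it, and the points of the genotypes overlap for most members.

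Neither mutant differed from wild type past the threshold in any of the 27 tested members, and UGT87A2 alone among them differed between the mutants. Differences are in log2 signal ± SE from limma's moderated fit over all 9 arrays, with Benjamini-Hochberg adjusted p over all 14173 probe sets and a threshold of 0.05. In the triple mutant against wild type 0 of 27 members were called, against 0.0917% of all tested probe sets (0.0494% higher and 0.0423% lower), and 0 had an unadjusted p under 0.05, against 6.51% of all. In the constans mutant against wild type 0 of 27 were called, against 1.4% (0.783% higher and 0.614% lower), and 5 had an unadjusted p under 0.05, against 11.3%. In the triple against the constans mutant 1 of 27 was called, against 3.38% (1.93% higher and 1.45% lower), and 8 had an unadjusted p under 0.05, against 17.7%. All 3 comparisons share arrays.

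The tested members' differences were small. Against wild type the triple mutant's ranged from -0.71 to 0.42 with a median of -0.05, and the constans mutant's from -0.50 to 0.64 with a median of 0.09. Between the triple and the constans mutant they ranged from -1.03 to 0.57 with a median of -0.15. The medians over all tested probe sets were 0.01, 0.00 and 0.00 in these comparisons. The members' median SE of 0.162 was close to the 0.157 over all tested probe sets. Differences were within 0.5 of zero in 25, 25 and 24 of the 27 members.

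**Figure D2:**
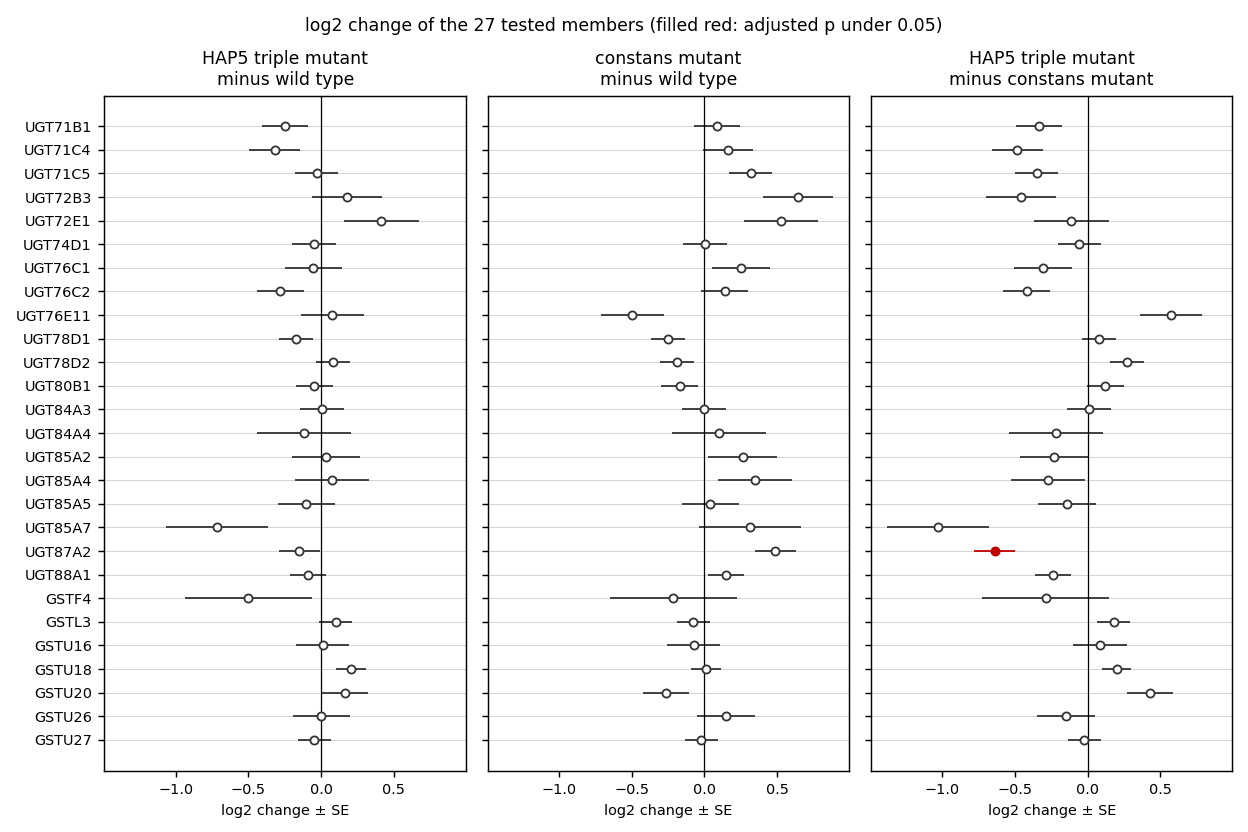
log2 difference ± SE of the 27 tested members in the HAP5 triple mutant minus wild type, the constans mutant minus wild type, and the HAP5 triple mutant minus the constans mutant (x axis), 1 gene to a row. UGT87A2 in the comparison of the mutants is the single filled point, with an adjusted p of 0.0240, and the widest bars belong to the dim genes UGT85A7, UGT84A4 and GSTF4.

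UGT87A2 (AT2G30140) encodes a glycosyltransferase known to promote flowering through the floral repressor gene FLC. It gave signals of 102, 111 and 97.3 on the triple mutant arrays, 142, 144 and 202 on the constans arrays, and 119.6, 105 and 119.5 on the wild-type arrays. Every constans array lay above every array of the other genotypes, and the triple mutant overlapped wild type. Means were 103 ± 6.93 in the triple mutant, 163 ± 33.8 in the constans mutant and 115 ± 8.23 in wild type (SD, n = 3 each).

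UGT87A2 was 1.56-fold lower in the triple than in the constans mutant, a difference of -0.64 ± 0.14 with a limma adjusted p of 0.0240. The constans mutant was 0.49 ± 0.14 above wild type, which did not pass (limma adjusted p = 0.138), and the triple mutant differed from wild type by -0.15 ± 0.14 (limma adjusted p = 0.914). Without constans 3, the array at 202, the difference was -0.47 (limma adjusted p = 0.103). Without triple mutant 1, 2 or 3 it was -0.63, -0.69 or -0.60, near the reported size, but did not pass (limma adjusted p = 0.0765, 0.0596 and 0.0864). The 25S signal was 56.5 on constans 1, 1152 on constans 2 and 1079 on constans 3, where UGT87A2 had 142, 144 and 202. With the 25S signal as a covariate the difference was -0.51 ± 0.20 (limma adjusted p = 0.475). On the 6 arrays of lower 25S signal it was -0.46, with constans 1 as the only constans array.

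**Figure D3:**
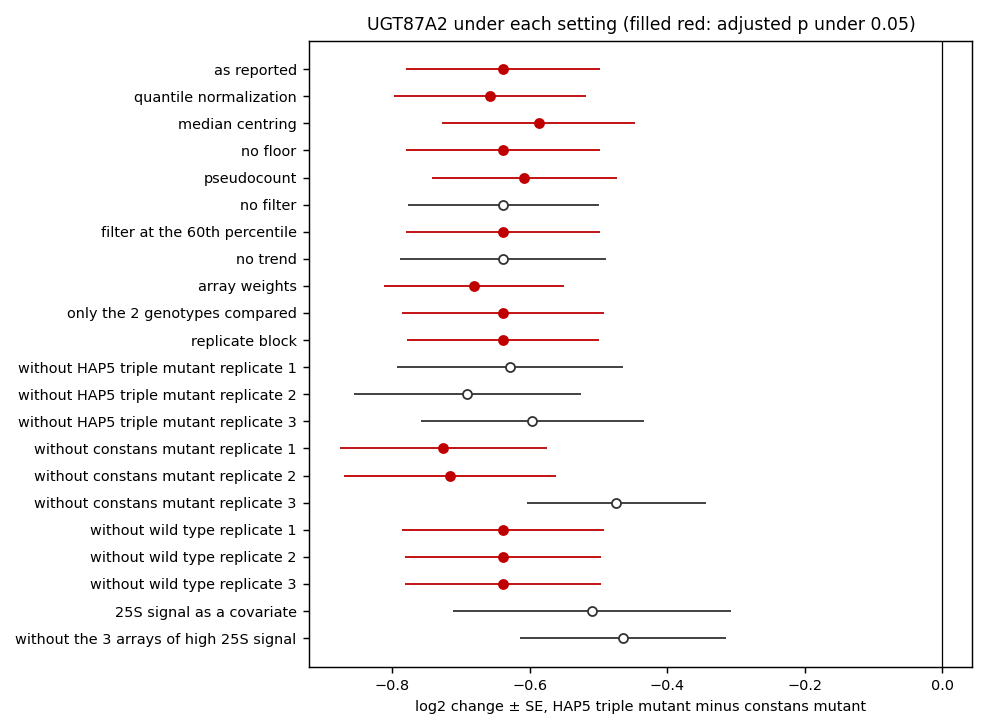
log2 difference ± SE of UGT87A2, HAP5 triple mutant minus constans mutant (x axis), as reported and with each of 21 alternative settings (rows). Filled red points have an adjusted p under 0.05, which 13 of the 21 alternatives reach, and every point is negative, between -0.73 and -0.46.

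Among the glycosyltransferases of hormones, the adjacent genes UGT76C1 and UGT76C2 attach glucose to a ring nitrogen of cytokinins. UGT76C2 had 37.2, 43.5 and 48.6 on the triple mutant arrays, 61.1, 51.1 and 60.4 on the constans arrays, and 48.0, 49.8 and 59.0 on the wild-type arrays. The triple mutant's arrays were all below those of the constans mutant and overlapped wild type. The difference between the mutants was -0.42 ± 0.16 (limma adjusted p = 0.194), and that between the triple mutant and wild type was -0.28 ± 0.16 (limma adjusted p = 0.841).

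UGT76C1 gave 23.9, 30.2 and 27.6 on the triple mutant arrays, 30.6, 34.9 and 35.3 on the constans arrays, and 27.8, 32.1 and 24.8 on the wild-type arrays. Triple mutant signals were again all below those of the constans mutant, by a narrow margin, with a difference of -0.31 ± 0.20 (limma adjusted p = 0.445). Neither cytokinin gene passed the test in any comparison.

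Of the abscisic acid glucosyltransferases, UGT71C5 was measured and UGT71B6 was too dim to test. UGT71C5 had 45.6, 54.5 and 53.6 on the triple mutant arrays, 57.1, 70.4 and 68.5 on the constans arrays, and 50.7, 50.0 and 56.0 on the wild-type arrays. The constans mutant lay above both other genotypes on every array, by 0.32 ± 0.15 over wild type (limma adjusted p = 0.443), and the triple mutant differed from it by -0.35 ± 0.15 (limma adjusted p = 0.242). UGT71B6 had 0.427, 1.93 and 1.83 on the triple mutant arrays, 2.00, 0.486 and 2.34 on the constans arrays, and 2.58, 3.94 and 3.10 on the wild-type arrays.

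UGT76E11 belongs to the UGT76E genes that glucosylate hydroxylated jasmonate. It had 81.0, 75.1 and 63.0 on the triple mutant arrays, 45.2, 36.4 and 70.8 on the constans arrays, and 64.7, 61.0 and 82.6 on the wild-type arrays. Constans 1 and constans 2 were the lowest of all 9, and constans 3 lay among the other genotypes. The triple mutant was 0.57 ± 0.22 above the constans mutant (limma adjusted p = 0.181) and the constans mutant differed from wild type by -0.50 ± 0.22 (limma adjusted p = 0.398). Without constans 3 the difference between the mutants was 0.84 (limma adjusted p = 0.0424), past the threshold. UGT76E1 and UGT76E2, of the same function, were too dim to test.

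UGT74D1, which glucosylates auxin metabolites, had 92.3, 91.0 and 96.4 on the triple mutant arrays, 88.9, 95.6 and 107 on the constans arrays, and 94.4, 78.9 and 121 on the wild-type arrays, with all genotypes overlapping. The auxin glucosyltransferase UGT84B1 was too dim, at 1.29, 0.984 and 0.866 on the triple mutant arrays, 5.03, 0.732 and 2.51 on the constans arrays, and 0.933, 6.08 and 12.5 on the wild-type arrays. The salicylic acid glucosyltransferase UGT74F1 was too dim as well, at 12.8, 2.95 and 10.5 on the triple mutant arrays, 3.56, 8.79 and 0.568 on the constans arrays, and 17.1, 11.1 and 2.79 on the wild-type arrays. UGT76B1, which conjugates immune signals, gave 1.45, 0.743 and 0.351 on the triple mutant arrays, 6.81, 2.18 and 6.65 on the constans arrays, and 15.1, 0.593 and 2.78 on the wild-type arrays. Its signals were lower on all triple mutant arrays than on all constans arrays, with no test at this level, and the genotypes overlapped for UGT84B1 and UGT74F1.

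Flavonoid glycosyltransferases were among the members well above the cutoff. UGT78D1, the flavonol 3-O-rhamnosyltransferase, had 233, 238 and 259 on the triple mutant arrays, 213, 229 and 250.4 on the constans arrays, and 277, 239 and 309.6 on the wild-type arrays. UGT78D2, the flavonoid 3-O-glucosyltransferase, had 375, 305 and 342 on the triple mutant arrays, 326, 255 and 268 on the constans arrays, and 332, 309 and 323 on the wild-type arrays. Genotypes overlapped in every comparison of both genes. UGT78D1 differed between the constans mutant and wild type by -0.25 ± 0.12 (limma adjusted p = 0.440), and UGT78D2 between the mutants by 0.27 ± 0.12 (limma adjusted p = 0.244). UGT78D3, the flavonol 3-O-arabinosyltransferase and a neighbour of UGT78D2, was too dim to test, at 8.21 or less. DFR, dihydroflavonol reductase of the pathway that supplies anthocyanins, was the single tested gene on the flavonoid list of 31 symbols, which include aliases. It had 773, 509 and 486 on the triple mutant arrays, 586, 825 and 796 on the constans arrays, and 527, 663 and 582 on the wild-type arrays, and was not called in any comparison (lowest limma adjusted p = 0.326).

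Among phenylpropanoid glycosyltransferases, UGT72E1, UGT72E2 and UGT72E3 act on monolignols and related aldehydes. UGT72E1 had 34.3, 35.7 and 25.4 on the triple mutant arrays, 46.9, 23.8 and 35.1 on the constans arrays, and 27.7, 22.2 and 21.3 on the wild-type arrays. Its difference of 0.42 ± 0.26 between the triple mutant and wild type was the highest of any tested member there (limma adjusted p = 0.856), and the genotypes overlapped. UGT72E2 was 15.4, 0.575 and 11.8 on the triple mutant arrays, 12.3, 23.3 and 11.8 on the constans arrays, and 12.5, 8.14 and 8.97 on the wild-type arrays. UGT72E3 had 0.524, 0.367 and 0.433 on the triple mutant arrays, 1.80, 0.659 and 1.18 on the constans arrays, and 0.803, 0.502 and 0.597 on the wild-type arrays. Both were too dim to test.

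UGT72B3, from the subfamily that holds the xenobiotic glucosyltransferase UGT72B1, lay near the cutoff. It had 20.5, 19.0 and 19.3 on the triple mutant arrays, 28.1, 30.6 and 22.9 on the constans arrays, and 14.6, 19.1 and 18.6 on the wild-type arrays. The constans arrays were above all others. The constans mutant exceeded wild type by 0.64 ± 0.24, the highest difference of any tested member in that comparison, which did not pass (limma adjusted p = 0.302).

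The hydroxycinnamate glucosyltransferases UGT84A1, UGT84A3 and UGT84A4 are close relatives. UGT84A3 had 66.0, 62.6 and 54.4 on the triple mutant arrays, 52.1, 68.9 and 61.7 on the constans arrays, and 56.4, 59.8 and 66.1 on the wild-type arrays, and its means of 61.0, 60.9 and 60.8 were the nearest to equal of the members described here. UGT84A4 lay near the cutoff between 12.6 and 27.2, with overlap in all comparisons. UGT84A1 was too dim, at 4.74, 4.19 and 7.17 on the triple mutant arrays, 3.98, 7.85 and 3.09 on the constans arrays, and 7.07, 4.06 and 9.74 on the wild-type arrays. The sterol glucosyltransferase UGT80B1 had 98.4, 87.3 and 109.7 on the triple mutant arrays, 93.2, 87.9 and 89.3 on the constans arrays, and 110.2, 104 and 91.0 on the wild-type arrays, also with overlap throughout.

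The UGT85A genes have less settled roles. UGT85A7 had 8.13, 11.4 and 8.77 on the triple mutant arrays, 14.9, 24.3 and 19.1 on the constans arrays, and 14.7, 21.2 and 11.6 on the wild-type arrays. All 3 triple mutant arrays were below every array of the other genotypes, and only the constans mutant reached the cutoff. The differences were -0.71 ± 0.35 from wild type (limma adjusted p = 0.789) and -1.03 ± 0.35 from the constans mutant (limma adjusted p = 0.139). They were the lowest of any tested member in both comparisons. UGT85A4 had 22.6, 22.0 and 25.7 on the triple mutant arrays, 27.1, 26.99 and 30.9 on the constans arrays, and 23.9, 15.4 and 29.8 on the wild-type arrays. Triple mutant signals were all below those of the constans mutant, with a difference of -0.27 ± 0.26 (limma adjusted p = 0.618). UGT85A2 and UGT85A5 overlapped in every comparison, and UGT85A3 was too dim to test.

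UGT71C4 lies beside UGT71C5. It had 98.1, 93.4 and 94.6 on the triple mutant arrays, 109, 120.1 and 180.5 on the constans arrays, and 108, 108 and 144 on the wild-type arrays. Triple mutant signals were below all others, with a difference of -0.32 ± 0.17 from wild type (limma adjusted p = 0.829) and -0.48 ± 0.17 from the constans mutant (limma adjusted p = 0.160). The 25S signal was 56.5 on constans 1, 1152 on constans 2 and 1079 on constans 3, where UGT71C4 had 109, 120.1 and 180.5. On wild type 3 the 25S signal was 418 and UGT71C4 had 144. No triple mutant array had a 25S signal above 42.4. With the 25S signal as a covariate the difference between the mutants was -0.09 (limma adjusted p = 0.984), and its cause was not tested.

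**Figure D4:**
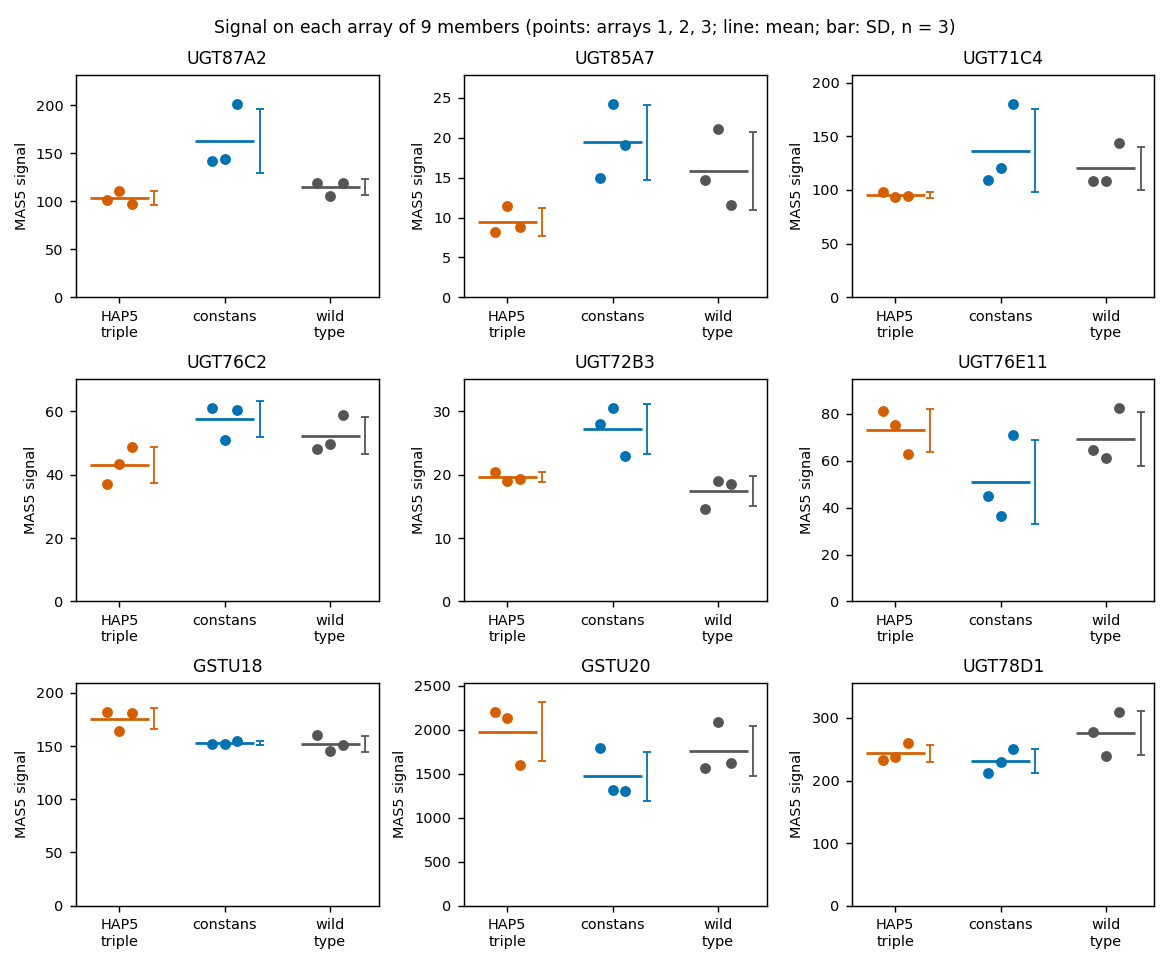
MAS5 signal (y axis, from 0) of 9 members on each array in the HAP5 triple mutant, the constans mutant and wild type; points are arrays 1, 2 and 3, lines are means and bars are the SD (n = 3). UGT87A2 and UGT72B3 are above the other arrays in all 3 constans arrays, UGT85A7 and UGT71C4 are below them in all 3 triple mutant arrays, and GSTU18 is above them in all 3 triple mutant arrays.

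Of the GSTs, 5 tau, 1 phi and 1 lambda gene were tested. GSTU20, a tau-class GST that interacts with the jasmonate-conjugating enzyme JAR1, had 2204, 2136 and 1595 on the triple mutant arrays, 1794, 1316 and 1309 on the constans arrays, and 1570.3, 2089.8 and 1626 on the wild-type arrays. Both mutants overlapped wild type and, through triple mutant 3, each other. The triple mutant exceeded the constans mutant by 0.43 ± 0.16 (limma adjusted p = 0.172). This difference was 0.58 (limma adjusted p = 0.0422) without constans 1, past the threshold. Without the 3 arrays of high 25S signal it was 0.13, with constans 1 as the only constans array left.

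GSTU18 had 182, 164 and 181 on the triple mutant arrays, 152, 152 and 155 on the constans arrays, and 160.2, 145 and 151 on the wild-type arrays. The triple mutant was above all other arrays, by 0.21 ± 0.10 over wild type (limma adjusted p = 0.795) and 0.20 ± 0.10 over the constans mutant (limma adjusted p = 0.331). The lambda gene GSTL3 had 695, 747 and 723 on the triple mutant arrays, 704, 532 and 689 on the constans arrays, and 709.6, 624 and 686 on the wild-type arrays, with overlap throughout. The phi gene GSTF4 had 10.2, 30.6 and 9.29 on the triple mutant arrays, 14.9, 14.1 and 25.4 on the constans arrays, and 17.1, 28.9 and 16.7 on the wild-type arrays. Its differences had the widest SE of the tested members, 0.44. GSTU16 and GSTU27 overlapped in every comparison, and GSTU26 overlapped in both comparisons with wild type.

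Some members had arrays that did not overlap between genotypes, most without passing the test. In the triple mutant GSTU18 was above wild type on every array (1 of 27, against 7.29% of all) and UGT85A7 and UGT71C4 below it (2 of 27, against 6.77%). In the constans mutant UGT71C5, UGT72B3 and UGT87A2 were above wild type (3 of 27, against 7.38%) and 0 of 27 were below it, against 6.97%. Between the mutants 1 of 27 was higher in the triple mutant, GSTU18, against 11.5% of all, and 9 of 27 were lower, against 11%. These 9 were UGT71C4, UGT71C5, UGT72B3, UGT76C1, UGT76C2, UGT85A4, UGT85A7, UGT87A2 and GSTU26, the last with a gap smaller than 0.1 in signal and a difference of -0.15 ± 0.20 (limma adjusted p = 0.748). Only UGT87A2 among them passed the adjusted threshold. UGT85A7 reached the cutoff only in the constans mutant, and UGT72B3 did not reach it in wild type. This favours counting UGT85A7 as lower between the mutants and UGT72B3 as above wild type.

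By family, 15 of 20 tested UGTs had a negative difference between the triple and the constans mutant, with a median of -0.23, and 3 of 7 GSTs did, with a median of 0.09. Over all tested probe sets 50.0% were negative. For the constans mutant against wild type 15 of 20 UGTs were positive (median 0.14) and 5 of 7 GSTs negative (median -0.07), and for the triple mutant against wild type 13 of 20 UGTs were negative (median -0.05) and 5 of 7 GSTs positive (median 0.01). All 3 tested UGT71 genes and all 4 tested UGT85A genes were negative between the mutants. UGT85A7 and UGT84A4, both among the 15 negative UGTs, reached the cutoff only in the constans mutant, which favours that sign. It also favours their positive sign for the constans mutant against wild type. UGT72B3, positive in both mutants against wild type, missed the cutoff in wild type. GSTF4, negative in both, reached it only in wild type, so these signs too are favoured by the filter. Without the 3 arrays of high 25S signal, constans 1 was the only constans array left. The negative counts were then 12 of 20 for the UGTs and 2 of 4 for UGT85A, while all 3 UGT71 genes stayed negative. In the comparisons with wild type the GST majority turned with single arrays. For the constans mutant 5 of 7 GSTs were positive without constans 2 and 4 of 7 without wild type 1, and for the triple mutant 4 of 7 were negative without triple mutant 3 or wild type 2. The positive UGTs of the constans mutant were 12 of 20 without constans 3. These signs are descriptions, and of the values behind them 1 passed the test.

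Neighbouring members were grouped by whether they were bright enough to test, which also depends on their probes. Of all members 45% were tested, and how many mixed groups this share alone would give was not worked out. With neighbours taken as members at most 5 protein-coding genes apart in TAIR10.1, 40 members formed 16 groups. In 9 of them some members were tested and others too dim, in 6 none was tested, and in 1, UGT76C1 with UGT76C2, all were. UGT85A4 and GSTU20 lie at the ends of a group on chromosome 1 in which GSTU21, GSTU22 and GSTU23 were too dim. In that group UGT85A4 had a difference of -0.27 and GSTU20 of 0.43 between the mutants. Close relatives may share probe matches, though all 60 members had the plain probe set type that the array's design gives to probes of a single transcript.

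Genes that supply or use the same substrates were few among the named probe sets. On the glutathione list of 34 symbols, which include aliases, 3 genes were tested. GR1, the cytosolic glutathione reductase, had 323.9, 356 and 311 on the triple mutant arrays, 265, 230.0 and 247 on the constans arrays, and 291, 295 and 288 on the wild-type arrays. The triple mutant was above all other arrays and the constans mutant below them. GR1 was higher in the triple than in the constans mutant by 0.42 ± 0.10 (limma adjusted p = 0.0330), and neither mutant passed against wild type (0.18 ± 0.10 for the triple mutant, limma adjusted p = 0.832, and -0.24 ± 0.10 for the constans mutant, limma adjusted p = 0.364). Leaving out triple mutant 1, 2 or 3 gave 0.43, 0.36 and 0.46, which did not pass (limma adjusted p = 0.0862, 0.184 and 0.0574). Without constans 2 or 3 it was 0.37 and 0.42 (limma adjusted p = 0.115 and 0.105), without wild type 1 it was 0.42 (0.0525), and with a 25S covariate 0.33 (0.543). The other 2, the plastid glutathione reductase GR and the glyoxalase GLX2-1, were not called. USP, a UDP-sugar pyrophosphorylase and the single tested gene on the UDP-sugar list of 30 symbols, was not called either. No gene of the vacuolar transport or as-1 bZIP lists had a named probe set. Of the 4 leaf markers, only LHCB4.2 was called, lower in the triple than in the constans mutant (-0.43 ± 0.10, limma adjusted p = 0.0300). In that comparison RCA, LHCB4.1 and LHCB4.3 differed by -0.08, -0.04 and -0.01. None of the 4 was called against wild type. The part of LHCB4.2 in the members' differences was not tested.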

How the data were processed

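Values are intensities, the MAS5 signal on a linear scale, in the deposited table of 22810 probe sets; per the submitters' processing notes they came from GCOS and MAS5, in versions not given in the sources used here. Each array's mean without the top and bottom 2% of probe sets was 100, so the authors' global scaling was kept. The 64 control probe sets were left out. Of the other 22746, 13513 had 1 gene symbol, 503 several and 8730 none, by GEO's platform annotation; symbols were matched to RefSeq (TAIR10.1). Tested probe sets with 1 named gene numbered 7691.

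Signals were floored at 1.029 (the 10th percentile of all values), filtered as described, log2-transformed and fitted with limma 3.58.1 (lmFit, eBayes with an intensity trend; R 4.3.3) over all 3 genotypes, with genotype as the only term and 6 residual degrees of freedom. Summaries used Python 3.11.15 and pandas 2.3.3. P-values were adjusted by Benjamini-Hochberg over all 14173 probe sets. The fit was tested on simulated data. Arrays with the same replicate number were not treated as pairs.

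Named with every array's value were members called in any comparison, the 4 highest and 4 lowest differences in each comparison, and members of well-known role; other members were named to complete a subfamily. Of the role genes in that list, those with no named probe set were not analysed here. The annotation's CHI is a chitinase and was left out of the flavonoid list. Members, lists, settings and tests were chosen with earlier results of these data known. The alternatives were other normalizations, floors, filters and fits, leaving out each array in turn, and the 25S signal as a covariate. Neighbours were taken from the gene order of RefSeq's TAIR10.1 table; no sequence was used.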

Additional observations from a re-analysis of the deposited data

How the results depend on the processing

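Both comparisons with wild type had 0 members called with every one of the 21 alternative settings and at a change of at least 2-fold, with 0 (triple mutant) and 5 (constans mutant) at an unadjusted p under 0.05 in the reported limma fit. Between the mutants the count of 1 became 0 with no filter on dim probe sets, with no trend, with the 25S signal as a covariate, without the 3 arrays of high 25S signal and at 2-fold, and 3 with array weights (GSTU20 higher, UGT71C4 and UGT87A2 lower). Leaving out 1 array gave 0 to 2: 0 without triple mutant 1, 2 or 3, 2 without constans 1 (UGT87A2 and GSTU20), and 1 without constans 3, which was UGT76E11 and not UGT87A2. UGT87A2 kept its direction in all 21, with differences of -0.73 to -0.46, and passed in 13 (limma adjusted p from 0.0053 to 0.475); it did not pass with no filter (0.103) or no trend (0.0663). GR1 passed in 11 of 21 (0.00577 to 0.543). Over all probe sets the calls between the mutants were 479 as reported, 1192 with array weights, 185 with no filter and 132 with the 25S covariate. For the constans mutant against wild type they were 198, and 56 with no filter; for the triple mutant against wild type 13, and 99 with array weights. The causes were not tested.

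Among 17 tested genes, signs turned 26 times, to values of at most 0.24 in size that passed no test. The 17 were the 16 members named by rule and GR1, added from the glutathione list outside that rule. Array weights gave 0.0378 (GSTF4), 0.00261 (UGT76C1) and -0.00282 (UGT78D2) for the triple mutant against wild type, -0.00638 (GSTU18) for constans minus wild type, and 0.0791 (GSTF4) between the mutants. For the constans mutant against wild type, median centring gave -0.0328 for GSTU18 and the 25S covariate -0.0262 for UGT71C4. There the arrays of low 25S signal alone, with constans 1 as the only constans array, gave 0.0821 (GSTL3), -0.00289 (GSTU18), 0.0281 (UGT78D2) and -0.24 (UGT85A7). The 25S covariate gave -0.0268 for UGT80B1 between the mutants. Leaving out 1 array gave ranges of -0.14 to 0.0438 (UGT76C1), -0.00997 to 0.21 (UGT76E11), -0.13 to 0.0371 (UGT80B1) and -0.19 to 0.28 (UGT85A4) for the triple mutant against wild type. They were -0.48 to 0.0463 (GSTF4), -0.15 to 0.0518 (GSTL3), -0.0241 to 0.0473 (GSTU18) and -0.0548 to 0.31 (UGT71C4) for constans minus wild type, and -0.84 to 0.0204 (GSTF4) and -0.37 to 0.12 (UGT72E1) between the mutants.

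With array number as a replicate block, members called were 0, 0 and 1, with limma adjusted p of 0.0188 for UGT87A2, and the calls over all probe sets were 20, 234 and 661. Deviations of arrays of the same number correlated from -0.0384 to 0.227, and those of different numbers from -0.323 to 0.204. Whether the numbers mark pairs was not tested. Dim signals limit what could be tested: 33 of 60 members were not.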

Other observations

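Members too dim to test are given here as signals alone, for 4 genes chosen after their values were seen; their signals lie below the cutoff of 18.65, apart from UGT76E12 on constans 3. UGT84B2, close to the auxin glucosyltransferase UGT84B1, had 0.181, 2.90 and 0.248 on the triple mutant arrays, 6.60, 12.4 and 7.59 on the constans arrays, and 6.98, 7.76 and 6.32 on the wild-type arrays. The floor of 1.029 lay above 2 of its 3 triple mutant signals, so a fitted difference would be set by the floor and none is given. GSTU15 had 0.917, 1.28 and 1.19 on the triple mutant arrays, 4.80, 4.90 and 3.87 on the constans arrays, and 0.218, 2.49 and 0.736 on the wild-type arrays. Its signal was below the floor on 1 triple mutant array and 2 wild-type arrays. UGT76E12 had 2.81, 0.402 and 0.577 on the triple mutant arrays, 2.25, 3.19 and 38.7 on the constans arrays, and 0.234, 0.902 and 0.215 on the wild-type arrays, so that a single array carried its signal. UGT73B1 had 11.0, 11.7 and 13.7 on the triple mutant arrays, 13.5, 8.75 and 6.60 on the constans arrays, and 15.7, 15.1 and 16.6 on the wild-type arrays, where all arrays were above those of both mutants. With no filter, limma called 0 of the 60 members in each comparison. Over all 22746 probe sets the same fit called 9 for the triple mutant minus wild type. Its calls were 56 for constans minus wild type, and 185 for the triple minus the constans mutant. Members at an unadjusted limma p under 0.05 numbered 3, 8 and 12 in the same order. The matching share of all probe sets with no filter is not given here, so whether these counts are unusual was not tested.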
